A study of Mus musculus with 14 samples.

Results

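Solute carriers are the membrane transporters of the Slc gene families, and this account covers those detected in mouse blood neutrophils. Members were the rows of the deposited table whose mouse symbol starts with Slc and a number, with a mean of at least 5 normalized reads over 14 libraries. Slc4a1, the red cell anion exchanger, was left out and is used here as a red cell marker. This took 120 of the 175 solute carrier rows in a table of 11288 genes. The least abundant member, Slc25a2, had a mean of 5.02, and the row just below the limit, Slc6a20b, had 4.94. All 120 members entered the tests, 105 had reads in every library, and 26 had a mean under 10. The symbol rule also took 4 genes that are named after a carrier and are not carriers themselves, and these are kept as a group of their own.

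Solute carriers move ions, metals, sugars, amino acids, nucleotides and lipids across the plasma membrane and the membranes of organelles, by facilitated diffusion or by coupling to ion gradients. The Slc25 family serves the inner mitochondrial membrane, and the Slc35 family carries nucleotide sugars into the Golgi and endoplasmic reticulum. Neutrophils are known to rely mainly on glycolysis, which makes glucose uptake and lactate export prominent among their transport needs. Cystine import supplies glutathione, and the handling of iron and zinc is part of their antimicrobial defence.

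The Cxcr4 mutants (3 libraries) and the mice labelled Bmal1-deficient (3 libraries) and Cxcr2-deficient (2 libraries) carried floxed alleles of the named gene with Mrp8Cre, a Cre recombinase under a promoter active in neutrophils and related myeloid cells. All were sampled at zeitgeber time (ZT) 5, 12 h clock time. Wild-type (WT) mice gave 3 libraries at ZT13, 20 h clock time, and 3 at ZT5. Donors were male C57BL/6 mice, 7 to 10 weeks old. Blood was depleted of red cells by lysis and stained for Ly6G with the antibody clone 1A8 for sorting, and the RNA was amplified with a kit for single cells. Nothing in the labels ties a replicate to an animal of its own, so p-values measure the spread between these samples, which may be technical. Every mutant group carries the Cre and no WT group is said to, so an effect of the Cre cannot be told apart from that of a deletion in a comparison with WT.

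Recovered depth was 4082276 to 6678645 reads a library. The target transcript marked the Cxcr4 mutants, with 13.2 to 26.2 normalized reads of Cxcr4, against 268 to 553 in WT ZT5. For the other mutants the target did not pass the test. Cxcr2 had 1354 and 1439 in the libraries labelled Cxcr2-deficient, against 1322 to 2219 in WT ZT5 (limma adjusted p = 0.542), and Arntl, the gene of the clock protein Bmal1, had 0 to 4.37 in the libraries labelled Bmal1-deficient, against 2.68 to 12.7 in WT ZT5 (limma adjusted p = 0.386). Both groups are therefore named by their labels only. The sum of 10 neutrophil markers was 35251 to 46457 in the Cxcr4 mutants and 9434 to 25781 in the other groups. The largest was S100a9, with means of 18679 in the Cxcr4 mutants and 5897 in WT ZT5. Not all of them were high throughout. Camp, Ltf and Ly6g had means of 2182, 3626 and 213 in the Cxcr4 mutants, against 17.4, 31.1 and 31.3 in WT ZT5. No group but the Cxcr4 mutants had a mean above 47.4 for any of these genes. Markers of other cells varied as well. The sum of 10 red cell markers was 4186 to 13964 in the Cxcr4 mutants, where 1 of them was at 0, and 21449 to 119560 elsewhere. The 10 B cell markers summed to 95.1 to 177 in the Cxcr4 mutants, where 1 of them was at 0, to 123 to 412 in the Bmal1-labelled, Cxcr2-labelled and WT ZT13 libraries, and to 477 to 3590 in WT ZT5. WT ZT5 replicate 5 stood apart with the highest B cell sum, 3590, and the lowest red cell sum of WT, 21449. In bulk samples, fewer cells of a type and less RNA per cell cannot be told apart.

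Together the members held 0.898% to 1.17% of the normalized reads of a library. Their sum was 9547 ± 110 in the Cxcr4 mutants, 10162 ± 210 in the Bmal1-labelled libraries, 10155 ± 105 in the Cxcr2-labelled ones, 10299 ± 745 in WT ZT13 and 8969 ± 1188 in WT ZT5 (SD, n = 3, except n = 2 for Cxcr2). The range in WT ZT5, 7623 to 9871, overlapped with that of the Cxcr4 mutants, 9446 to 9664. The sum of 7623 was that of WT ZT5 replicate 5, where members held 0.898%. Its total of normalized reads was also the lowest, 848880, against 921603 to 1084280 in the other libraries. Levels of different genes are compared here per kb of annotated exon. The median over members was 4.62 normalized reads per kb, and a few transporters stood far above it. Slc2a3, the glucose transporter GLUT3, led with 168 reads per kb. Slc40a1, the iron exporter ferroportin, followed with 131, and Slc38a6, an amino acid transporter family member, with 110. Slc25a5, the mitochondrial ADP/ATP carrier ANT2, had 91.9 and Slc16a3, the lactate exporter MCT4, 69.8.

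**Figure D1:**
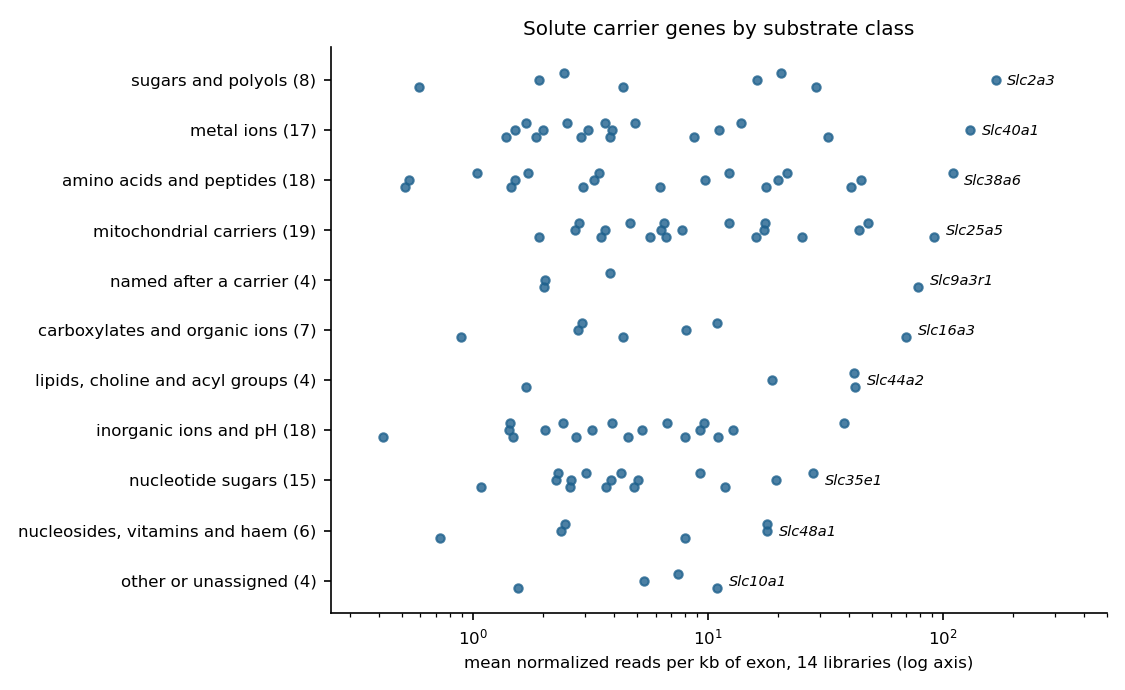
Mean normalized reads per kb of exon over the 14 libraries for each of the 120 members (points, log axis), by substrate class with the class size in brackets and the highest member of 10 of the 11 classes named. Slc2a3, Slc40a1 and Slc38a6 lie above 100 reads per kb.

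Several of the most abundant members were not called by limma in any comparison. Slc2a3 had 1632, 1305 and 1482 normalized reads in the Cxcr4 mutants, 1215, 1261 and 1157 in the Bmal1-labelled libraries, 1137 and 1268 in the Cxcr2-labelled ones, 1304, 1129 and 1028 in WT ZT13 and 730.2, 1254 and 1157 in WT ZT5. The Cxcr4 mutants lay above every other library, the lowest of them by less than 1 normalized read, and the other groups overlapped. Slc40a1 had 1032, 932 and 1069 normalized reads in the Cxcr4 mutants, 1432, 1189 and 1475 in the Bmal1-labelled libraries, 1221 and 1495 in the Cxcr2-labelled ones, 1544, 1322 and 1089 in WT ZT13 and 614, 1035 and 1015 in WT ZT5. WT ZT5 replicate 5 was the lowest library for both genes. Slc6a6, the taurine transporter, spanned only 279 to 386 over all libraries. Other members among the highest of their class, including Slc44a2 (a choline transporter), Slc11a1 (the phagosomal metal transporter NRAMP1), Slc25a5, Slc35a5 and Slc35e1, were not called either.

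Across the 5 groups, 20 of 120 members (16.7%) differed at a limma F-test adjusted p under 0.05, against 7.85% of all genes tested. By class, these were 5 of 18 for amino acids and peptides, 6 of 19 mitochondrial carriers, 2 of 18 for inorganic ions and pH, 2 of 8 for sugars and polyols and 2 of 4 for lipids, choline and acyl groups. Another 1 each came from 7 carriers of carboxylates and organic ions, 6 of nucleosides, vitamins and haem, and 15 of the Slc35 family. None of the 17 metal ion transporters was called, with 6 of them at an unadjusted p under 0.05, as were 22.4% of all genes. The smallest adjusted p-values belonged to Slc25a37 (2.95e-05), Slc7a11 (0.000108), Slc16a3 (0.000503), Slc25a39 (0.000891) and Slc25a51 (0.00147). With each library left out in turn, 8 members were called every time, namely these 5 with Slc27a4, Slc44a1 and Slc12a2. The count of called members was 11 without Cxcr4 mutant replicate 5 and 13 without WT ZT13 replicate 9, and 17 without WT ZT5 replicate 5.

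**Figure D2:**
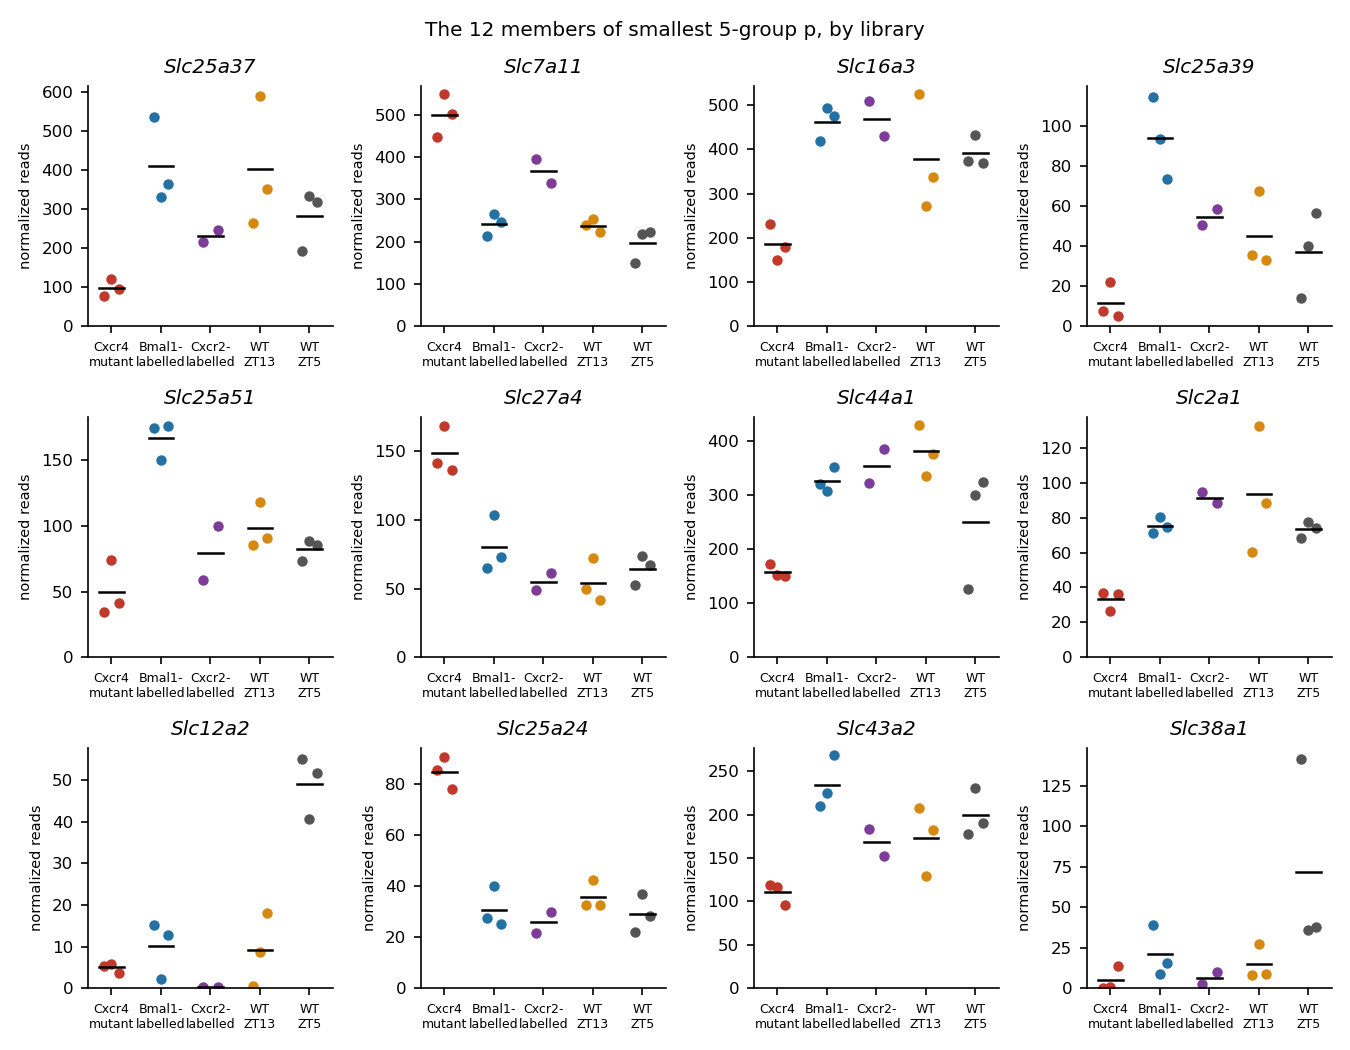
Normalized reads in each library (points) with the group mean (bar) for the 12 members of smallest F-test p, from the Cxcr4 mutants at the left to WT ZT5 at the right of each panel. The Cxcr4 mutants lie above every other library for Slc7a11, Slc27a4 and Slc25a24, and below every other library for Slc25a37, Slc16a3, Slc2a1 and Slc43a2.

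**Figure D3:**
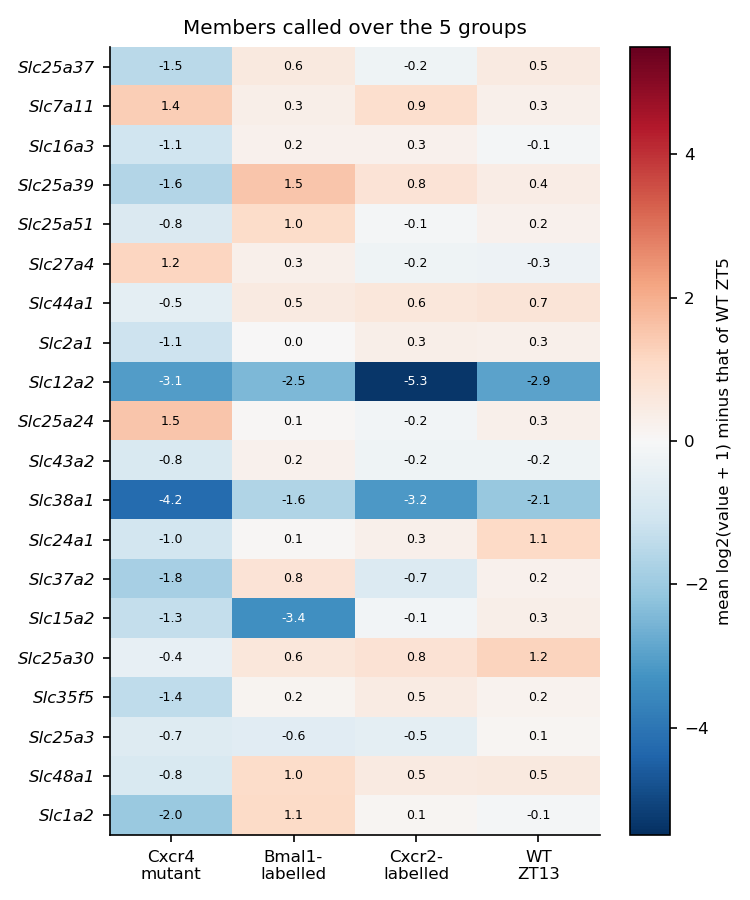
Difference of the mean log2(value + 1) of each group from that of WT ZT5 for the 20 members called over the 5 groups, in order of p. Slc38a1 has the lowest value of the Cxcr4 mutant column, at -4.24, Slc12a2 is below 0 in all 4 columns, and Slc25a39 and Slc25a51 have opposite signs in the Cxcr4 mutants and the Bmal1-labelled libraries.

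Of the 4 groups set against WT ZT5, the Cxcr4 mutants had the most called members. Of 120 members, 3 rose and 10 fell (10.8%), beside 8.2% of all genes called, 4.05% higher and 4.15% lower. The 3 that rose import cystine (Slc7a11), exchange ATP-Mg for phosphate across the inner mitochondrial membrane (Slc25a24) and handle fatty acids (Slc27a4). The 10 that fell include carriers of glucose, lactate, mitochondrial iron and neutral amino acids. Over all members the median log2 fold change was -0.34, with 43 positive and 77 negative. For all genes tested it was -0.11, with 4984 positive and 6271 negative. In 11 of the 13 called members the libraries of the groups did not overlap, as in 96.5% of all genes called. With each library left out in turn, 6 calls held every time, namely Slc7a11, Slc25a37, Slc16a3, Slc38a1, Slc25a24 and Slc27a4. Without Cxcr4 mutant replicate 5 the count was 8, and without WT ZT5 replicate 5 it was 14.

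**Figure D4:**
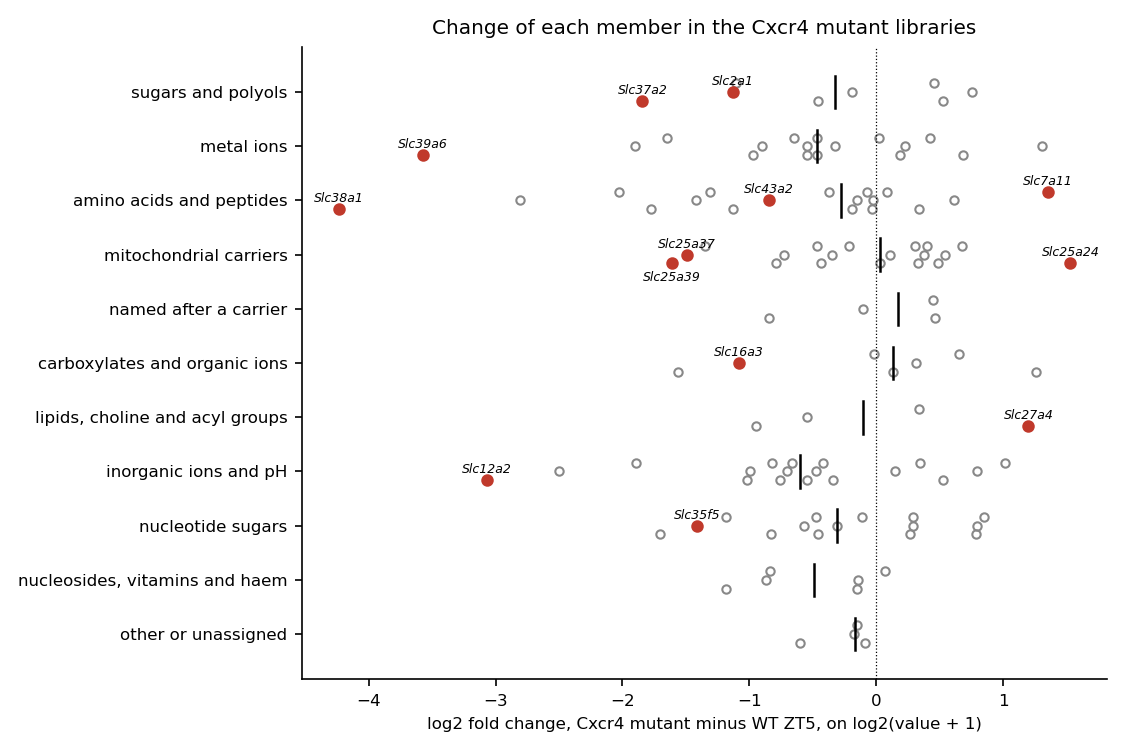
Log2 fold change of each member between the Cxcr4 mutants and WT ZT5 on the log2(value + 1) scale, by substrate class, with called members filled and named and the class median as a bar. Slc7a11, Slc25a24 and Slc27a4 are the filled points right of 0, and the other 10 are left of it.

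Among amino acid and peptide transporters, 1 of 18 rose and 2 fell, with a class median of -0.28. Slc7a11 is the light chain of the exchanger that imports cystine in return for glutamate, and the cystine is used for glutathione. The gene lies at chromosome 3, 49892526 to 50443614 of GRCm38 on the minus strand. It had 447, 548 and 502 normalized reads in the Cxcr4 mutants, 213, 265 and 247 in the Bmal1-labelled libraries, 396 and 339 in the Cxcr2-labelled ones, 238, 252 and 222 in WT ZT13 and 149, 218 and 224 in WT ZT5. The Cxcr4 mutants lay above every other library, and the Cxcr2-labelled libraries came next. Against WT ZT5 it rose 2.56-fold in the Cxcr4 mutants (log2 fold change 1.35 with SE 0.19 and limma adjusted p = 3.17e-05), and without WT ZT5 replicate 5 the log2 fold change was 1.17. Its heavy chain partner Slc3a2 had 45.7, 30.1 and 44.7 normalized reads in the Cxcr4 mutants, against 49.1, 28.3 and 47.4 in WT ZT5 (log2 fold change -0.03 with SE 0.33 and limma adjusted p = 0.973), which did not pass.

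The promoter of Slc7a11 is shown because it holds, on opposite strands, 2 copies of the letters TGATGCAA, the core of the amino acid response element bound by ATF4 dimers. The window runs from 250 bases before to 50 after the RefSeq start, GRCm38.p6, chr3:50443564-50443863, minus strand, with matches on either strand in capitals, their first bases at -66 and -47 from the start.
Slc7a11: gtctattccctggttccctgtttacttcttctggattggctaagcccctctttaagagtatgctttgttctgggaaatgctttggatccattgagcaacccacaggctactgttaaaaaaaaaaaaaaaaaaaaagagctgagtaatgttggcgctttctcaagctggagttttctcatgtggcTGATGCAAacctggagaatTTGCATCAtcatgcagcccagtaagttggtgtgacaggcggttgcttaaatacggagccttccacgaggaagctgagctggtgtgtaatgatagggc
The letters, searched on both strands, occur in 0.895% of 32851 promoter windows of that length and in 1 of the 110 windows of members. Motif and gene were chosen with the values known, and a match is only a description of the sequence.

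Slc38a1, the sodium-coupled glutamine transporter SNAT1, had 0, 1.02 and 14 normalized reads in the Cxcr4 mutants, against 141, 35.7 and 37.7 in WT ZT5. The other libraries had 39.0, 8.93 and 15.8 (Bmal1-labelled), 2.86 and 9.88 (Cxcr2-labelled) and 8.03, 27.1 and 9.01 (WT ZT13). The Cxcr4 mutants overlapped with each of these groups, and Slc38a1 was not called between them and either labelled group. The highest Cxcr4 mutant library was below the lowest WT ZT5 library, and WT ZT5 replicate 5 was far above the others. It fell in the Cxcr4 mutants (log2 fold change -4.24 with SE 0.84 and limma adjusted p = 0.00152), and without that replicate the log2 fold change was -3.60 (adjusted p = 0.0212). Slc43a2, the transporter LAT4 for large neutral amino acids, had 119, 117 and 95.4 normalized reads in the Cxcr4 mutants, against 178, 231 and 191 in WT ZT5. It fell in the Cxcr4 mutants (log2 fold change -0.85 with SE 0.21 and limma adjusted p = 0.0115), a call lost without Cxcr4 mutant replicate 5 (adjusted p = 0.0702) or without WT ZT5 replicate 8 (adjusted p = 0.053). B cell markers differed between the same groups, with 9 of 10 lower in the Cxcr4 mutants than in WT ZT5 and sums of 95.1 to 177 against 477 to 3590. Within WT ZT5 the highest B cell sum was in replicate 5, where Slc38a1 was highest, at 141, and Slc43a2 lowest, at 178. Of 9 monocyte markers 6 were lower and 1 higher, with sums of 629 to 664 against 1059 to 1797, and 8 of 10 neutrophil markers were higher. The higher monocyte marker, Ly6c2, had 265, 320 and 280 in the Cxcr4 mutants, against 37.6, 32.1 and 33.2 in WT ZT5. It is a large part of the Cxcr4 mutant sums. Among 2 eosinophil and basophil markers, 1 was lower, and none of 7 platelet markers passed, with platelet sums of 41.5 to 91.9 in the Cxcr4 mutants and 43.6 to 610.4 in WT ZT5. The part of these markers in the results was not tested.

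Of 8 sugar carriers, 2 fell in the Cxcr4 mutants and none rose, with a median of -0.33, and of 7 carriers of carboxylates and organic ions 1 fell, with a median of 0.13. Slc16a3 exports lactate. It lies at chromosome 11, 120948480 to 120960868 of GRCm38 on the plus strand and had 231, 149 and 179.5 normalized reads in the Cxcr4 mutants, 418, 493 and 475 in the Bmal1-labelled libraries, 508 and 429.6 in the Cxcr2-labelled ones, 525, 272 and 338 in WT ZT13 and 373, 432 and 370.0 in WT ZT5. All 3 Cxcr4 mutant libraries were below every other library. Against WT ZT5 this was 0.471 of the level (log2 fold change -1.08 with SE 0.21 and limma adjusted p = 0.00138). Slc2a1, the glucose transporter GLUT1 at chromosome 4, 119108711 to 119137983 of GRCm38 on the plus strand, had 37.0, 26.6 and 36.3 normalized reads in the Cxcr4 mutants, 71.3, 80.4 and 74.6 in the Bmal1-labelled libraries, 94.8 and 88.2 in the Cxcr2-labelled ones, 60.2, 132 and 88.2 in WT ZT13 and 68.1, 77.7 and 74.2 in WT ZT5. Here too no other library was as low as the Cxcr4 mutants. The fall against WT ZT5 was to 0.457 of the level (log2 fold change -1.13 with SE 0.28 and limma adjusted p = 0.0108), and the call was lost without Cxcr4 mutant replicate 4 (adjusted p = 0.0627). Slc37a2, an antiporter of glucose 6-phosphate and phosphate of the endoplasmic reticulum, had 11.8, 13 and 2.05 normalized reads in the Cxcr4 mutants, against 20.2, 35.0 and 31.9 in WT ZT5. It fell (log2 fold change -1.84 with SE 0.55 and limma adjusted p = 0.0378), with the call lost without Cxcr4 mutant replicate 5, WT ZT5 replicate 8 or WT ZT5 replicate 9, at an adjusted p of up to 0.244, and with edgeR (adjusted p = 0.103). The main glucose transporter of these cells by level, Slc2a3, did not pass between the Cxcr4 mutants and WT ZT5 (log2 fold change 0.52 with SE 0.19 and limma adjusted p = 0.0831).

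Promoters of Slc16a3 and Slc2a1 are shown because both genes fell in the Cxcr4 mutants and both windows hold ACGTG, the core of the element bound by hypoxia-inducible factors. Genes and motif were chosen with the values known, and a match is only a description of the sequence. Both windows span 250 bases before to 50 after the RefSeq start in GRCm38.p6, with matches on either strand in capitals. For Slc16a3 the window is chr11:120948817-120949116, plus strand, with matches starting at -27 and -14. For Slc2a1 it is chr4:119108495-119108794, plus strand, with 1 match at -36.
Slc16a3: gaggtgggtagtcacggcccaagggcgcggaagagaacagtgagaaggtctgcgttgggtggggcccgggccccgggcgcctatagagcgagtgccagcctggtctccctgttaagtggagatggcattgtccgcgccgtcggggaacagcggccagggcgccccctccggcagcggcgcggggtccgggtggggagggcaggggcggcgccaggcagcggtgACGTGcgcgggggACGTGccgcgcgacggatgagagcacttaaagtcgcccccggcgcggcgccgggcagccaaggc
Slc2a1: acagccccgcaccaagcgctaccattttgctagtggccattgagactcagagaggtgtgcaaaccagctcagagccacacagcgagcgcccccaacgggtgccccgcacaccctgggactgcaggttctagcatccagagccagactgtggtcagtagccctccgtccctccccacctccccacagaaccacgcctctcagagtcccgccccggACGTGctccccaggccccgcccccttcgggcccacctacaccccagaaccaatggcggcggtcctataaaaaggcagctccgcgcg
ACGTG is common, occurring in 19.6% of the 32851 windows and in 30 of the 110 windows of members (27.3%), and every CACGTG, the E-box of clock proteins, contains it. CACGTG itself was found in 7.15% of windows and in neither of these. Among the 13 called members, 9 had a window, and Slc35f5 was the other one with ACGTG. TGACNNNGC (12.4% of windows) and AGATAA (11.2%) were also searched and are not in the windows of the called members.

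In the mitochondrial family, 1 of 19 carriers rose and 2 fell in the Cxcr4 mutants, with a median of 0.03. Slc25a37 is mitoferrin-1, which brings iron into mitochondria and is best known from haem synthesis in developing red cells. It lies at chromosome 14, 69241848 to 69285112 of GRCm38 on the minus strand and had 78.5, 122 and 95.3 normalized reads in the Cxcr4 mutants, 536, 332 and 364 in the Bmal1-labelled libraries, 216 and 246 in the Cxcr2-labelled ones, 266, 591 and 351 in WT ZT13 and 193, 334 and 318 in WT ZT5. The Cxcr4 mutants were below all other libraries, at 0.356 of the WT ZT5 level (log2 fold change -1.49 with SE 0.26 and limma adjusted p = 0.000468). Slc25a39, a carrier needed for mitochondrial glutathione import, had 7.79, 22.0 and 5.21 normalized reads in the Cxcr4 mutants, 114, 93.7 and 73.4 in the Bmal1-labelled libraries, 50.7 and 58.8 in the Cxcr2-labelled ones, 35.4, 67.4 and 32.9 in WT ZT13 and 14.1, 39.9 and 56.7 in WT ZT5. The highest Cxcr4 mutant library exceeded the lowest of WT ZT5, and the Bmal1-labelled libraries were above all others. It fell against WT ZT5 (log2 fold change -1.61 with SE 0.47 and limma adjusted p = 0.0329), a call lost without Cxcr4 mutant replicate 2 or 5 or WT ZT5 replicate 8 or 9, at an adjusted p of up to 0.192, and with edgeR (0.0631).

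Slc25a24 carries ATP-Mg against phosphate across the inner membrane. It lies at chromosome 3, 109123149 to 109168457 of GRCm38 on the plus strand and had 85.5, 90.7 and 78.1 normalized reads in the Cxcr4 mutants, 27.4, 40.0 and 25 in the Bmal1-labelled libraries, 21.8 and 29.9 in the Cxcr2-labelled ones, 32.5, 42.3 and 32.6 in WT ZT13 and 22.2, 37.2 and 28.4 in WT ZT5. The Cxcr4 mutants were 2.89-fold above WT ZT5 (log2 fold change 1.53 with SE 0.33 and limma adjusted p = 0.00385) and above every library of the other groups. Slc25a51, the mitochondrial NAD+ carrier, had 34.6, 73.8 and 41.1 normalized reads in the Cxcr4 mutants, 175, 150.5 and 176 in the Bmal1-labelled libraries, 58.6 and 99.9 in the Cxcr2-labelled ones, 85.4, 118 and 91.1 in WT ZT13 and 73.5, 88.9 and 85.7 in WT ZT5. Its highest values were in the Bmal1-labelled libraries. The difference between the Cxcr4 mutants and WT ZT5 did not pass (log2 fold change -0.79 with SE 0.28 and limma adjusted p = 0.0816), and that between the Bmal1-labelled libraries and WT ZT5 did not either (log2 fold change 1.01 with SE 0.28 and limma adjusted p = 0.0798). Slc25a3, the phosphate carrier, and Slc25a30 passed the F-test but no comparison of groups described here.

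Red cell markers moved with several of these carriers. In the Cxcr4 mutants 9 of the 10 markers fell against WT ZT5 and none rose, with sums of 4186 to 13964 against 21449 to 67491. Slc25a37 was lowest in the libraries with the lowest marker sums and highest, at 591 and 536, in the pair with the highest, 110490 in WT ZT13 and 119560 in the Bmal1-labelled group. Slc48a1, a haem transporter of the endolysosome, had 16.2, 35.0 and 13.6 normalized reads in the Cxcr4 mutants, 81.2, 70.9 and 72.2 in the Bmal1-labelled libraries, 75.8 and 35.6 in the Cxcr2-labelled ones, 43.0, 75.9 and 45.6 in WT ZT13 and 15.8, 46.0 and 63.9 in WT ZT5. Its lowest libraries were 2 of the Cxcr4 mutants and WT ZT5 replicate 5, the WT library of lowest marker sum. Slc16a3 did not follow the sum among libraries outside the Cxcr4 group, being highest, at 525, in the WT ZT13 library with a sum of 28521. The part of red cell transcripts in these results was not tested.

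**Figure D5:**
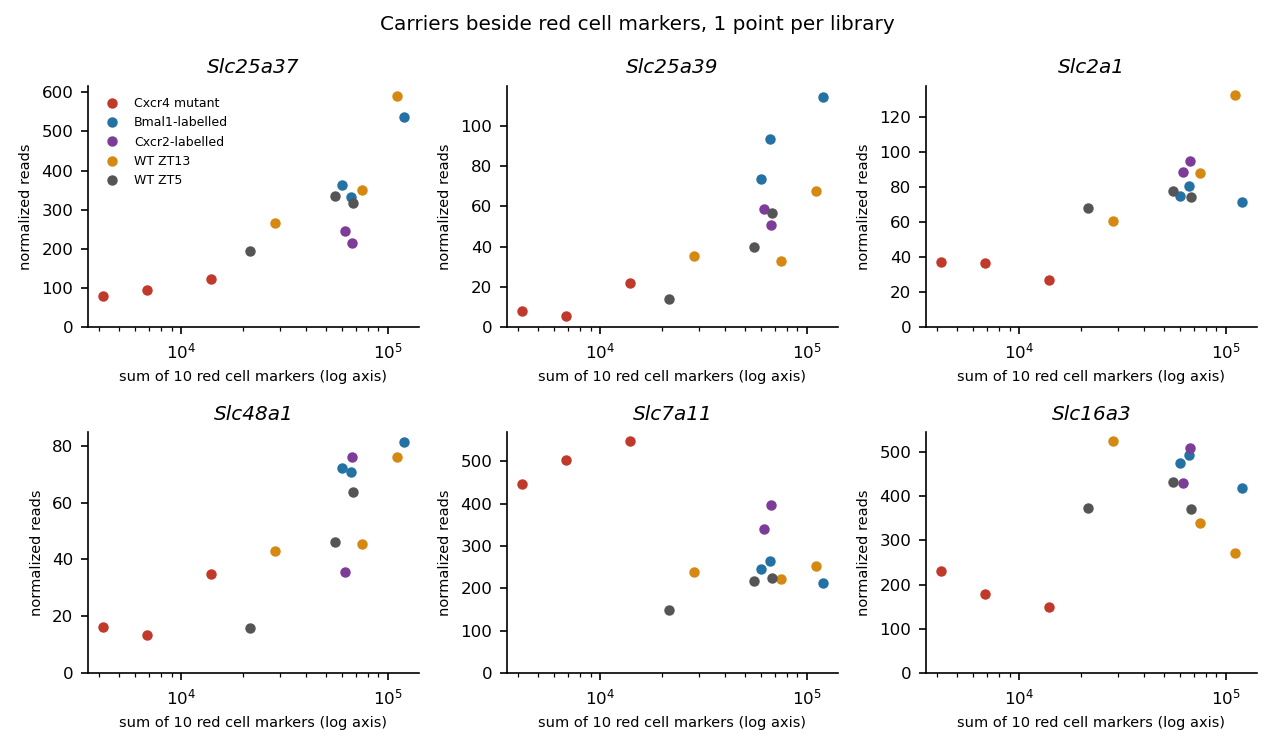
Normalized reads of 6 members against the sum of 10 red cell markers (log axis), 1 point per library, coloured by group. Cxcr4 mutant points lie at the left in every panel, low for Slc25a37, Slc25a39 and Slc16a3 and high for Slc7a11, and the other groups show Slc25a37 between 193 and 591.

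Of 4 carriers for lipids, choline and acyl groups, 1 rose. Slc27a4, the fatty acid transport protein FATP4 with acyl-CoA synthetase activity, lies at chromosome 2, 29802634 to 29817522 of GRCm38 on the plus strand and had 141, 169 and 136 normalized reads in the Cxcr4 mutants, 64.7, 104 and 72.7 in the Bmal1-labelled libraries, 48.7 and 61.6 in the Cxcr2-labelled ones, 49.8, 72.1 and 41.4 in WT ZT13 and 52.7, 74.1 and 67.0 in WT ZT5. The Cxcr4 mutants were above every other library, 2.30-fold over WT ZT5 (log2 fold change 1.2 with SE 0.27 and limma adjusted p = 0.00545). Slc44a1, a choline transporter, had 173, 152 and 151 normalized reads in the Cxcr4 mutants, 320.3, 308 and 353 in the Bmal1-labelled libraries, 323 and 385 in the Cxcr2-labelled ones, 429.5, 336 and 377 in WT ZT13 and 127, 299.6 and 324 in WT ZT5. WT ZT5 replicate 5 lay below the Cxcr4 mutants and its group mates above them, and this difference did not pass (log2 fold change -0.54 with SE 0.25 and limma adjusted p = 0.199).

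Of 18 carriers of inorganic ions and pH, 1 fell in the Cxcr4 mutants and none rose, with a median of -0.60. Slc12a2 is the sodium-potassium-chloride cotransporter NKCC1, which loads cells with chloride. It had 5.39, 5.90 and 3.72 normalized reads in the Cxcr4 mutants, 15.3, 2.23 and 12.7 in the Bmal1-labelled libraries, 0.220 and 0.230 in the Cxcr2-labelled ones, 0.524, 8.67 and 18.0 in WT ZT13 and 54.9, 40.5 and 51.7 in WT ZT5. WT ZT5 was above every other library, with no overlap. The fall in the Cxcr4 mutants (log2 fold change -3.07 with SE 0.84 and limma adjusted p = 0.0219) was lost without Cxcr4 mutant replicate 2 (adjusted p = 0.055), without Cxcr4 mutant replicate 4 (adjusted p = 0.0525), without Cxcr4 mutant replicate 5 (adjusted p = 0.079), without WT ZT5 replicate 5 (adjusted p = 0.086) or without WT ZT5 replicate 9 (adjusted p = 0.0762). It was also lost with a pseudocount of 0.1 (adjusted p = 0.0909). Slc24a1, a sodium-calcium-potassium exchanger, passed the F-test. Its group mean was highest in WT ZT13, with 63.2 to 84.3, and lowest in the Cxcr4 mutants, with 12.0 to 26.0. Other libraries fell within these ranges: Cxcr2-labelled replicate 5 (64.1), WT ZT5 replicate 5 (23.6) and Bmal1-labelled replicate 4 (25.9).

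Of 17 metal ion transporters, 1 fell in the Cxcr4 mutants, with a class median of -0.47. Slc39a6, the zinc importer ZIP6, had 0, 0 and 0.186 normalized reads in the Cxcr4 mutants, against 12.3, 22.4 and 5.36 in WT ZT5. The Cxcr4 mutants held 1 read in all, against 229 in WT ZT5, which puts their level at 0.464% of that of WT ZT5 (95% exact Poisson interval on that read 0.0118% to 2.59%, covering counting error only). The call (log2 fold change -3.57 with SE 0.92 and limma adjusted p = 0.0141) was lost without WT ZT5 replicate 5 (adjusted p = 0.0503) or without WT ZT5 replicate 8 (adjusted p = 0.0658). Slc39a6 overlaps Elp2 on the opposite strand in the annotation, and strand is not given for the counting. Among Slc35 genes, 1 of 15 fell. Slc35f5 had 22.8, 10.6 and 7.63 normalized reads in the Cxcr4 mutants, against 17.7, 55.9 and 41.0 in WT ZT5, with overlapping groups (log2 fold change -1.41 with SE 0.44 and limma adjusted p = 0.0454), and was called in only 4 of the 14 fits with a library left out: without Bmal1-labelled replicate 2 or 4, Cxcr4 mutant replicate 2 or WT ZT5 replicate 5. The adjusted p was up to 0.206, and 0.0654 with edgeR. None of the 6 carriers of nucleosides, vitamins and haem passed.

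The Cxcr4 mutants were also set against the mutants labelled for the other receptor, which share the Cre and the time of day. Against the Cxcr2-labelled libraries, 2 of 120 members rose and 6 fell, beside 4.13% of all genes called, 2.28% higher and 1.85% lower. Slc27a4 (log2 fold change 1.42 with SE 0.30 and limma adjusted p = 0.00492) and Slc25a24 (log2 fold change 1.69 with SE 0.37 and limma adjusted p = 0.0065) rose. Slc16a3 (log2 fold change -1.34 with SE 0.24 and limma adjusted p = 0.00068), Slc2a1 (log2 fold change -1.45 with SE 0.31 and limma adjusted p = 0.00557), Slc25a39 (log2 fold change -2.37 with SE 0.53 and limma adjusted p = 0.00721) and Slc25a37 (log2 fold change -1.24 with SE 0.29 and limma adjusted p = 0.0116) fell, as did Slc44a1 (log2 fold change -1.15 with SE 0.27 and limma adjusted p = 0.0126) and Slc35f5 (log2 fold change -1.86 with SE 0.49 and limma adjusted p = 0.0259). Groups did not overlap for any of the 8, nor for any of the 465 genes called in all. With 2 libraries on one side, Slc16a3 alone held in every fit with a library left out, and the count was 1 without Cxcr2-labelled replicate 4 and 4 without replicate 5. The 7 others were lost without replicate 4, and Slc25a39, Slc25a37, Slc44a1 and Slc35f5 also without replicate 5, at adjusted p up to 0.160. Leaving out Cxcr4 mutant libraries ended the calls of Slc25a37 (replicate 2), Slc44a1 (replicate 5) and Slc35f5 (replicate 4 or 5), within the same limit. Red cell markers differed here too, with 9 of 10 lower in the Cxcr4 mutants, as was 1 of 2 eosinophil and basophil markers. B cell markers did not pass in this comparison, where 0 of 10 were called. Of 10 neutrophil markers 5 were higher and 1 lower, and 1 of 9 monocyte markers was higher. Slc7a11 did not pass (log2 fold change 0.44 with SE 0.21 and limma adjusted p = 0.293).

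Against the Bmal1-labelled libraries, 3 members rose and 12 fell, beside 5.7% of all genes called, 3.19% higher and 2.51% lower. Slc25a37 (log2 fold change -2.04 with SE 0.26 and limma adjusted p = 8.33e-06), Slc25a39 (log2 fold change -3.11 with SE 0.47 and limma adjusted p = 8.71e-05) and Slc25a51 (log2 fold change -1.80 with SE 0.28 and limma adjusted p = 0.000105) fell most clearly, and Slc7a11 (log2 fold change 1.04 with SE 0.19 and limma adjusted p = 0.000737) and Slc25a24 (log2 fold change 1.46 with SE 0.33 and limma adjusted p = 0.00684) rose. Slc1a2, a glutamate transporter known from the brain, had 2.20, 0.610 and 4.47 in the Cxcr4 mutants and 15.5, 50.2 and 20.0 in the Bmal1-labelled libraries. These groups did not overlap (log2 fold change -3.10 with SE 0.71 and limma adjusted p = 0.00673), and the call was lost without Bmal1-labelled replicate 3 (adjusted p = 0.0654). Slc48a1 fell (log2 fold change -1.86 with SE 0.44 and limma adjusted p = 0.0082), a call lost without Cxcr4 mutant replicate 5 (adjusted p = 0.0616). The other called members were Slc16a3, Slc43a2, Slc37a2, Slc44a1, Slc2a1, Slc35f5 and Slc27a4, with Slc16a10, an aromatic amino acid transporter named after its values were seen. With each library left out in turn, 9 calls held every time. Slc2a1 was lost without Cxcr4 mutant replicate 4 (adjusted p = 0.0604). Slc35f5 was lost without Bmal1-labelled replicate 2 or 3 or Cxcr4 mutant replicate 4 or 5, at an adjusted p of up to 0.155. Slc16a10 was lost without Bmal1-labelled replicate 2 or 4 or Cxcr4 mutant replicate 4 or 5 (up to 0.185). Slc27a4 was lost without any Cxcr4 mutant library, Bmal1-labelled replicate 2 or 4, WT ZT13 replicate 2 or WT ZT5 replicate 8 or 9 (up to 0.181). All 10 red cell markers were lower in the Cxcr4 mutants in this comparison. Of 10 neutrophil markers 6 were higher and 1 lower. Among the others, 1 of 10 B cell markers and 1 of 7 platelet markers were lower, and 1 of 9 monocyte markers was higher. The 3 comparisons of the Cxcr4 mutants share those libraries, and the 4 comparisons with WT ZT5 share its libraries.

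Against WT ZT5, 1 of 120 members rose and 1 fell in the Cxcr2-labelled libraries, beside 0.666% of all genes called, 0.213% higher and 0.453% lower. Slc12a2 had 1 read in each Cxcr2-labelled library, against 875 reads over the 3 WT ZT5 libraries. Its level was 0.459% of that of WT ZT5 (95% exact Poisson interval on the 2 reads 0.0556% to 1.66%, covering counting error only). It fell (log2 fold change -5.34 with SE 0.94 and limma adjusted p = 0.00538), a call lost without Cxcr2-labelled replicate 4 (adjusted p = 0.0626) or without Cxcr2-labelled replicate 5 (adjusted p = 0.0544). Slc7a11 rose (log2 fold change 0.91 with SE 0.21 and limma adjusted p = 0.0388) to 396 and 339, against 149, 218 and 224 in WT ZT5, without overlap. That call was lost without Cxcr4 mutant replicate 5 (adjusted p = 0.056), without Cxcr2-labelled replicate 4 (adjusted p = 0.276), without Cxcr2-labelled replicate 5 (adjusted p = 0.133), without WT ZT13 replicate 9 (adjusted p = 0.0502) or without WT ZT5 replicate 5 (adjusted p = 0.151). With a pseudocount of 0.1 the adjusted p was 0.0518, with quantile normalization 0.0656 and with edgeR 0.0852. B cell markers were lower here as well, 3 of 10 passing, with sums of 242 and 268 in the Cxcr2-labelled libraries against 477 to 3590 in WT ZT5. Of 9 monocyte markers 2 were lower, with sums of 616 to 635 in the Cxcr2-labelled libraries and 1059 to 1797 in WT ZT5. The part of these markers was not tested. The next members by p did not pass: Slc38a1 (log2 fold change -3.18 with SE 0.94 and limma adjusted p = 0.11), the cationic amino acid transporter Slc7a1 (log2 fold change -3.24 with SE 1.03 and limma adjusted p = 0.135), and Slc9a3r1, a scaffold protein named after a carrier (log2 fold change 0.72 with SE 0.23 and limma adjusted p = 0.139). Of these, Slc7a1 was called with DESeq2 (adjusted p = 0.0418).

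No member passed between the Bmal1-labelled libraries and WT ZT5, beside 1.02% of all genes. With limma, 15 members had an unadjusted p under 0.05 (12.5%), against 13.5% of all genes, and the adjusted calls were 0 with edgeR and 1 with DESeq2. Slc15a2, the peptide transporter PEPT2, had 0.168, 0.372 and 15.5 in the Bmal1-labelled libraries, against 25.7, 16.9 and 61.2 in WT ZT5. These groups did not overlap, as in 17.9% of all genes tested (log2 fold change -3.38 with SE 0.87 and limma adjusted p = 0.06). The Cxcr4 mutants, with 2.40, 57.8 and 8.74, overlapped with both. Slc40a1, which exports iron, had 1432, 1189 and 1475 in the Bmal1-labelled libraries and 614, 1035 and 1015 in WT ZT5 (log2 fold change 0.65 with SE 0.19 and limma adjusted p = 0.105). DESeq2 called it in this comparison (adjusted p = 0.0496), and without WT ZT5 replicate 5 the limma log2 fold change was 0.41. Slc25a39 (log2 fold change 1.5 with SE 0.47 and limma adjusted p = 0.129) and Slc41a1, a magnesium transporter (log2 fold change -2.47 with SE 0.81 and limma adjusted p = 0.149), followed. For Slc25a39 the log2 fold change was 0.94 without WT ZT5 replicate 5. A single member passed without Bmal1-labelled replicate 4, Cxcr4 mutant replicate 2 or 4, or WT ZT5 replicate 8.

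Time of day was examined in WT mice. No member passed between ZT13 and ZT5, beside 0.08% of all genes, and edgeR and DESeq2 also called none. At an unadjusted limma p under 0.05 there were 14 members (11.7%), against 10.6% of all genes. Slc12a2 had 0.524, 8.67 and 18.0 at ZT13, against 54.9, 40.5 and 51.7 at ZT5, without overlap (log2 fold change -2.92 with SE 0.84 and limma adjusted p = 0.156). Slc25a30, a mitochondrial carrier, had 49.1, 48.4 and 49.9 at ZT13 and 15.5, 30.0 and 18.3 at ZT5, also apart (log2 fold change 1.22 with SE 0.38 and limma adjusted p = 0.198). Of all genes tested, 16.5% had no overlap between ZT13 and ZT5. Slc40a1 (log2 fold change 0.59 with SE 0.19 and limma adjusted p = 0.217), Slc44a1 (log2 fold change 0.71 with SE 0.25 and limma adjusted p = 0.263) and Slc38a2, a second sodium-coupled neutral amino acid transporter (log2 fold change 0.64 with SE 0.23 and limma adjusted p = 0.276), came next. Without WT ZT5 replicate 5 the log2 fold change was 0.35 for Slc40a1 and 0.28 for Slc44a1.

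Between the Bmal1-labelled and the Cxcr2-labelled libraries no member passed, beside 0.133% of all genes. Of 120 members, 12 had an unadjusted limma p under 0.05 (10.0%), against 8.01% of all genes, and edgeR called 0 and DESeq2 1. The member called with DESeq2 was Slc12a2 (adjusted p = 0.0197), which had 1 read in each Cxcr2-labelled library. Slc25a51 had 175, 150.5 and 176 in the Bmal1-labelled libraries and 58.6 and 99.9 in the Cxcr2-labelled ones (log2 fold change 1.11 with SE 0.31 and limma adjusted p = 0.247). Slc35d2, a nucleotide sugar transporter, had 20.7, 3.91 and 4.52 in the Bmal1-labelled libraries and 33.9 and 45.7 in the Cxcr2-labelled ones (log2 fold change -2.27 with SE 0.68 and limma adjusted p = 0.278). Slc26a2, a sulfate transporter, had 31.4, 36.1 and 33.0 in the Bmal1-labelled libraries and 65.2 and 71.4 in the Cxcr2-labelled ones (log2 fold change -1.01 with SE 0.32 and limma adjusted p = 0.326). Groups did not overlap for these 3 genes, as in 21.7% of all genes tested. A single member passed without Bmal1-labelled replicate 4.

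Genes that work with carriers were described through a list of 28 partners, 25 of them in the table. It holds ion pump subunits, carrier chaperones, regulatory kinases, iron and zinc proteins, hexokinases and pyruvate carrier subunits. In the Cxcr4 mutants 3 rose and 2 fell against WT ZT5, with a median of 0.04. Wnk1, a kinase that regulates cation-chloride cotransporters, had 609.8, 653 and 567 in the Cxcr4 mutants, against 393, 265 and 333 in WT ZT5 (log2 fold change 0.90 with SE 0.18 and limma adjusted p = 0.00187). Mpc2, a subunit of the mitochondrial pyruvate carrier, had 53.7, 81.0 and 54.3 in the Cxcr4 mutants and 22.0, 20.9 and 18.3 in WT ZT5 (log2 fold change 1.56 with SE 0.33 and limma adjusted p = 0.00269). Hk3, a hexokinase of myeloid cells, rose as well (log2 fold change 0.91 with SE 0.26 and limma adjusted p = 0.0282). Steap4, a metalloreductase, had 70.7, 27.7 and 90.6 in the Cxcr4 mutants, against 383, 911 and 807 in WT ZT5 (log2 fold change -3.52 with SE 0.41 and limma adjusted p = 2.42e-06).

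Basigin (Bsg), the chaperone of MCT4, had 17.8, 17.7 and 15.4 in the Cxcr4 mutants, against 33.8, 31.0 and 30.7 in WT ZT5, and did not pass (limma adjusted p = 0.239). Lactate dehydrogenase A (Ldha), which forms the lactate that MCT4 exports, had 305, 375 and 366 in the Cxcr4 mutants and 167, 238 and 249 in WT ZT5 (limma adjusted p = 0.0528). Embigin (Emb), another monocarboxylate transporter chaperone, and the ferritin light chain Ftl1 rose in the Bmal1-labelled libraries against WT ZT5 (log2 fold change 0.83 with SE 0.18 and limma adjusted p = 0.0242 for Emb and log2 fold change 0.99 with SE 0.22 and limma adjusted p = 0.0296 for Ftl1). None of the 25 passed in the Cxcr2-labelled libraries or at ZT13 against WT ZT5. Emb, Steap4 and the ferritin heavy chain Fth1 fell in the Cxcr4 mutants both against the Cxcr2-labelled and against the Bmal1-labelled libraries, and Wnk1 rose against the Cxcr2-labelled ones. Fits with a library left out were not examined for these partner genes.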

How the data were processed

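RNA of Ly6G-stained blood neutrophils was measured in 14 libraries of 5 groups. The authors deposited 1 table of normalized reads per gene, a signal with a scaling not given in the sources used here. CASAVA 1.8.2, cutadapt, RSEM 1.2.3 and GRCm38 are named, per the submitters' processing notes. Division by 1 constant a library gave whole reads for 100% of values (tolerance 1e-06 reads), 4082276 to 6678645 a library. Ensembl identifiers were matched to GENCODE vM21, giving a symbol to 11194, and 94 had none.

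Groups were fitted together with limma 3.58.1 in R 4.3.3, with an intensity trend, on log2(value + 1), so that fold changes understate those of low genes. Tested were 11255 genes with a mean of at least 1, and 33 were below it. An adjusted p is a limma moderated test (F-test over 5 groups) with Benjamini-Hochberg adjustment over all genes tested, called under 0.05. edgeR 4.0.16 (quasi-likelihood, TMM) and DESeq2 1.42.0 on recovered reads were alternatives, and the limma fit was tested on simulated data.

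Named were, per comparison, up to 10 called members of smallest p, filled to 5 where fewer passed, with the members called by the F-test and the 3 of highest mean per class. Members, classes, lists and promoter motifs were chosen with earlier results of these data known. Promoters are RefSeq windows of GRCm38.p6, found for 91 of the 120 members. Strand is not given for the counting, so reads of overlapping or antisense genes cannot be told apart. In the annotation this touches Slc7a11, Slc43a2, Slc25a37, Slc2a1, Slc37a2, Slc44a1, Slc1a2, Slc48a1, Slc16a6 and Slc39a6. Slc25a5 has near-identical copies elsewhere in the genome and is uncertain for that reason. A few named genes are not reported here and stay in the counts. Isoforms and reads within deleted segments were not analysed here.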

Additional observations from a re-analysis of the deposited data

How the results depend on the processing

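Over 48 results for single members and 1008 alternatives, 953 kept direction and side of the threshold, 47 lost their call, 8 gained one and 0 reversed. Counts of called members moved by more than 1.5 times as follows. The 20 of the F-test became 13 with edgeR. The 2 of the Cxcr2-labelled libraries against WT ZT5 became 1 with a pseudocount of 0.1, with quantile normalization and with edgeR, and 0 with a replicate block. The 0 of the Bmal1-labelled libraries against WT ZT5 and against the Cxcr2-labelled ones each became 1 with DESeq2. With each library left out in turn the counts ranged from 11 to 19 for the F-test. They ranged from 8 to 14 for the Cxcr4 mutants against WT ZT5, from 1 to 9 against the Cxcr2-labelled libraries and from 11 to 16 against the Bmal1-labelled ones. For the Cxcr2-labelled libraries against WT ZT5 the range was 0 to 2, and for the Bmal1-labelled libraries 0 to 1 against either group. WT ZT13 against WT ZT5 gave 0 every time. Beyond fewer libraries in these fits, the cause was not tested. Quantile normalization moved the median log2 fold change of all genes between the Cxcr4 mutants and WT ZT5 to 0.03, from -0.11. Replicate numbers did not pair the samples: deviations of same-numbered libraries correlated at -0.037 to 0.017 over 11 pairs, and the block gave 14 members in the F-test. In all, the block ended 7 of the calls of single members. Between the Cxcr4 mutants and WT ZT5 these were Slc25a37, Slc2a1, Slc39a6 and Slc12a2, at a limma adjusted p of 0.0561 to 0.326. Against the Bmal1-labelled libraries it was Slc1a2 (limma adjusted p = 0.114). Among the 120 members, 15 had a library with no reads. WT ZT5 replicate 5, with 6678645 reads, had 2.36% of all genes at 0. For WT ZT5 replicate 8, with 4802511 reads, the share was 4.79%. For Bmal1-labelled replicate 2, with 6449119 reads, it was 10.1%. The part of depth in these zeros was not tested.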

Other observations

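Among the 55 solute carrier rows below the mean of 5, 1 was called in the comparison of the Cxcr4 mutants with WT ZT5. This was Slc39a10, a zinc importer, with a log2 fold change of -3.57 and a limma adjusted p of 0.0142. It was named after its values were seen.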
